A study of Mus musculus with 30 samples.

Results

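The 10 genes described here are regulators and products of chondrocytes and osteoblasts, the cells that make cartilage and bone: Sox9, Sox5, Sox6, Runx2, Sp7, Alpl, Spp1, Ibsp, Comp and Bglap. They were chosen by gene symbol from the 48440 genes of the count table. Their levels were not used, but earlier results of these data were known. Each symbol matched 1 Ensembl mouse gene of GENCODE release M21. They were read in 30 bulk RNAseq libraries of transplanted tumors from 5 primary fibrosarcoma cell lines, each derived from a tumor that subcutaneous 3-methylcholanthrene (MCA) had induced in a mouse. MCA-943 (4 tumors) and MCA-969 (8 tumors) were classed by the study as non-sensitive to NK1.1+ cells, and MCA-948 (8 tumors), MCA-970 (6 tumors) and MCA-972 (4 tumors) as sensitive. All tumors grew in vivo on a C57BL/6 background, and CD45 microbeads had removed hematopoietic cells before RNA extraction. The labels give the mouse strain as Ncr1Cre for the 4 MCA-943 tumors and as Ncr1Cre R26DTA for those of the other lines, without saying whether the strain is that of the donor of the line or of the host. In mice with both alleles diphtheria toxin A is made in cells that express Ncr1, chiefly NK cells, and not in sarcoma cells. For W-1D and W-2D of MCA-969 the labels give the opposite sensitivity, and both stayed with their line here. Titles carry a letter, W or a (none for MCA-972 2G), whose meaning the labels and the paper's methods do not state.

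SOX9 is the master regulator of chondrocytes, and it acts with SOX5 and SOX6 on the genes of cartilage matrix. RUNX2 commits mesenchymal cells to the osteoblast fate, and SP7 (osterix) acts after it. Maturing osteoblasts then make alkaline phosphatase (Alpl), bone sialoprotein (Ibsp) and osteopontin (Spp1), and, late, osteocalcin (Bglap), whereas COMP is a matrix protein of cartilage and tendon. Skeletal matrix is also made by fibroblasts in part, and osteopontin is made by macrophages and many tumors.

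Sox9, Runx2 and Spp1 were expressed in every tumor of every line, while Sox6, Sp7, Alpl, Ibsp, Comp and Bglap stayed at or below 4.17 CPM (counts scaled to library size by the TMM method) in every tumor. Sox9 and Runx2 differed little between lines, whereas Spp1 was 7.59 to 14.3 times lower in MCA-948 than in the other lines. MCA-969 had the highest mean of Sox5, Sp7 and Comp and the lowest of Ibsp. Over the 5 lines no member had an adjusted p below 0.667 between the 2 non-sensitive and the 3 sensitive lines. The exact permutation test used cannot go below p = 0.1 with 5 lines, so no member could have passed 0.05.

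Totals were 27745104 to 46537062 counts per tumor, and a count of 3, the limit that a count of 0 allows, was 0.0792 to 0.0908 CPM on average over the tumors of a line. Limits and intervals from counts cover counting error only. Library numbers were grouped here into 3 runs: 6 tumors of MCA-969 with 4 of MCA-972 make up the first, 6 of MCA-970 with 2 of MCA-948 and 2 of MCA-969 the second, and 4 of MCA-943 with 6 of MCA-948 the third. The first and the second are consecutive, while the third skips a few numbers and starts a few numbers after the second ends. The labels do not say what the runs stand for. MCA-943, MCA-970 and MCA-972 each lie in a single run, and MCA-943 shares its run with MCA-948 alone. With the run as covariate, their differences from lines of other runs are thus estimated with less precision. A call lost in that fit can come from a wider error as well as from a smaller difference. Each line is a single cell line, so the spread between its tumors is that of transplants and not of independent sarcomas. All 10 fibroblast markers passed the filter, with summed levels of 12540 to 49220 CPM, which does not test the fibrosarcoma label. The 9 skeletal muscle markers summed to 0.987 to 13.3 CPM. Of these 3 passed, and Acta1 and Tnnt3 were called among lines, both highest in MCA-969, whereas the muscle regulators Myod1, Myog and Pax7 did not exceed 0.0327 CPM in any tumor. Of the 12 macrophage markers 11 passed, with summed levels of 15.2 to 456.5 CPM. In such bulk RNA, fewer cells of a type and less RNA per cell cannot be told apart.

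Reference sequences are shown for genes that the results turn on. The first set is the 250 bases before the RefSeq start (GRCm38.p6) of Spp1, the most abundant member, of Ibsp, its neighbor on chromosome 5, and of Bglap, all of which are known targets of RUNX2. Capitals mark TGTGGT or its reverse complement ACCACA, the core that RUNX factors bind, searched on both strands. The Spp1 window is chr5:104434861-104435110 on the forward strand, that of Ibsp is chr5:104299037-104299286 on the forward strand, and that of Bglap is chr3:88384467-88384716 on the reverse strand.
Spp1: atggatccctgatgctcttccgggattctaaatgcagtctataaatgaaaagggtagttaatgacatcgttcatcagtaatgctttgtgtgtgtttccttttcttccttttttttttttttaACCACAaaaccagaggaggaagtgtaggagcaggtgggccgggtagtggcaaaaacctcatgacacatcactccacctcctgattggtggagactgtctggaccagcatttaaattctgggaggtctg
Ibsp: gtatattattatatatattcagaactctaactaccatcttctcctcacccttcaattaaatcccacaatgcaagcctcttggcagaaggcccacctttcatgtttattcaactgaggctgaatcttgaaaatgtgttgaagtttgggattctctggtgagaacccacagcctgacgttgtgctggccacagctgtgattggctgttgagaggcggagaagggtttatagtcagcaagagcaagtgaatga
Bglap: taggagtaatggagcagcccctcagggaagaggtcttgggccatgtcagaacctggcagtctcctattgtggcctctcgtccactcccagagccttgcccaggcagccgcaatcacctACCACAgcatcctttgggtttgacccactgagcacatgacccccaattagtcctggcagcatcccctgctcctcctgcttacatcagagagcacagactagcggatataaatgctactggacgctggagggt
Spp1 and Bglap held 1 match each, which began 128 and 132 bases before the start, and Ibsp held none, nor did a second Spp1 window or either of the Alpl windows in the RefSeq table. Of 32851 windows of this length, 14.05% held a match. A match is a description of letters and not a site of binding.

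The second set is the coding sequence of Bglap and of its tandem copies Bglap2 and Bglap3 (GENCODE M21, GRCm38), which decides whether reads can be assigned. Capitals mark, in Bglap, the bases that differ from Bglap2 and, in the copies, those that differ from Bglap. The coding parts lie on the reverse strand at chr3:88383635-88384415, chr3:88377870-88378650 and chr3:88368756-88369536.
Bglap: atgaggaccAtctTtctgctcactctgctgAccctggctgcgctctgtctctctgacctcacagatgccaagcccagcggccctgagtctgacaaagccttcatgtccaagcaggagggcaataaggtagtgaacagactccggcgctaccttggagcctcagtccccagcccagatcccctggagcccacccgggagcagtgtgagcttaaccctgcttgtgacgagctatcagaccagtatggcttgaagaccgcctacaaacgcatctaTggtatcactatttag
Bglap2: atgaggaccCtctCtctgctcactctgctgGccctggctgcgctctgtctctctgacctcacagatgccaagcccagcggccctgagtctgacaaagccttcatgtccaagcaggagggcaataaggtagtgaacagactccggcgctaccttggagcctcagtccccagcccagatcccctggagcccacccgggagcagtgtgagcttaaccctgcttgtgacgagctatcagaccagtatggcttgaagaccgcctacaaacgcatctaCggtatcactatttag
Bglap3: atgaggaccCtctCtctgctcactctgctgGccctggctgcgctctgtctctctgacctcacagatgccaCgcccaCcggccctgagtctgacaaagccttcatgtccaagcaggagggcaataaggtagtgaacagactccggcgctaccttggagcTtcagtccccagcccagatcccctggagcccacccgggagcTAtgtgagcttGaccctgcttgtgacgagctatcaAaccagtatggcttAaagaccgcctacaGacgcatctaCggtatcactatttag
Over 288 bases Bglap2 differed from Bglap at 4 positions (98.6% identity) and Bglap3 at 13 (95.5% identity). How reads with several alignments were counted is not given in the sources used here, so the counts of these genes are uncertain.

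**Figure D1:**
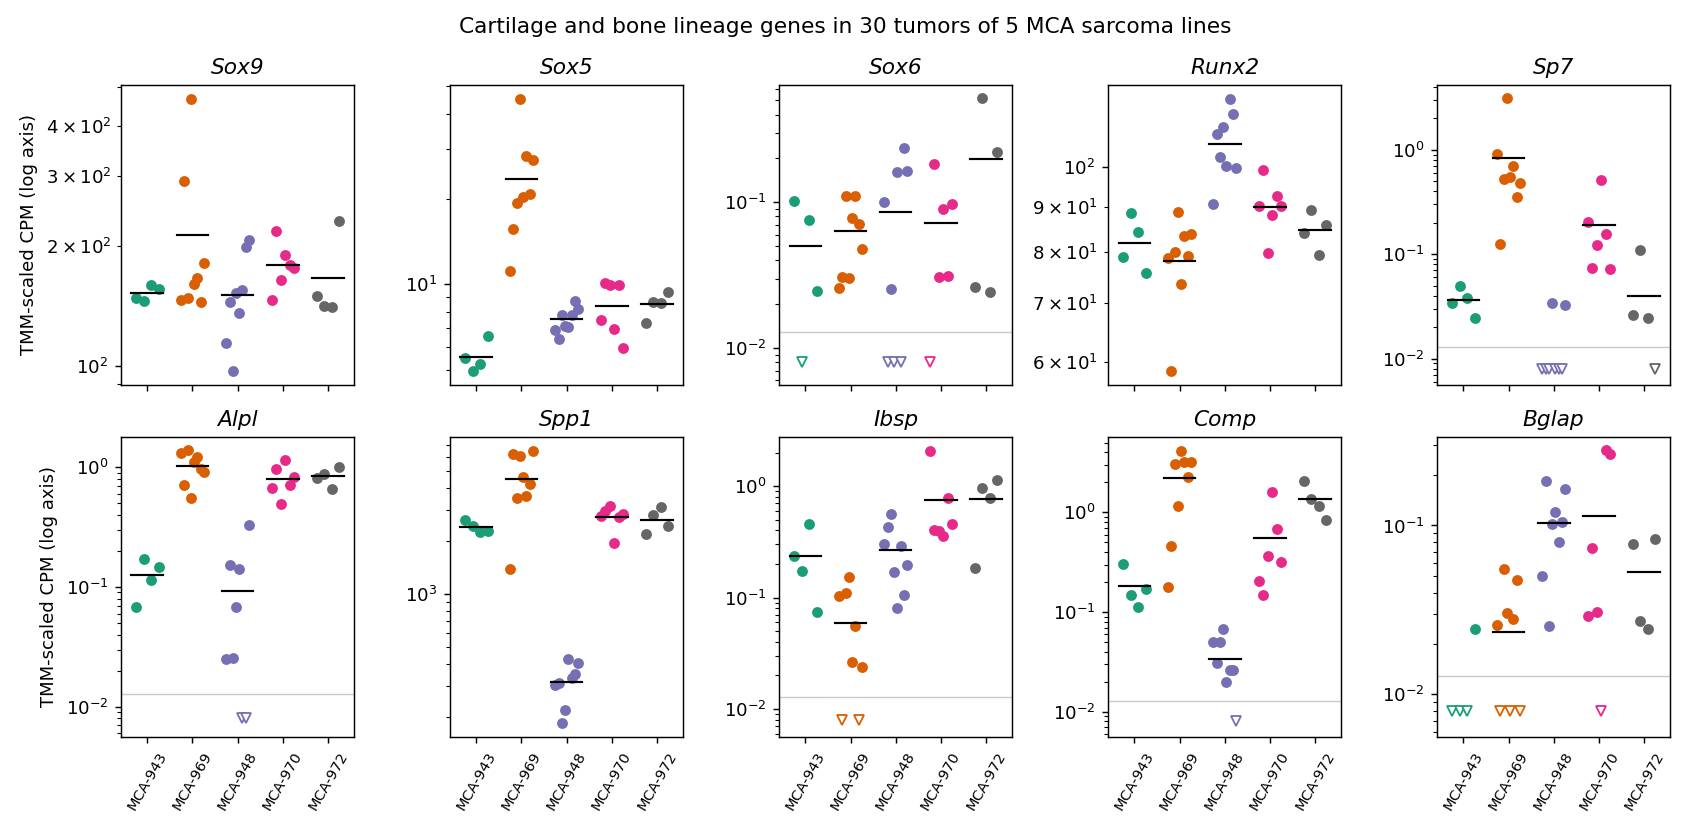
TMM-scaled CPM of the 10 members in each tumor (points) by line on a log axis that differs between panels, with the mean of each line as a bar. Open triangles under the grey line are tumors with 0 counts, and means that fall there are not drawn; Spp1 sits between 183 and 427 CPM in MCA-948, below every tumor of the other lines.

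Of the cartilage regulators, Sox9 (chr11:112782224-112787760) was high in all lines. Its levels in MCA-943 were 148, 146, 159.8 and 156 CPM in W-2G, a-1D, a-1G and a-R. In MCA-969 the lowest, median and highest tumor had 145, 163 and 468 CPM. All 5 lines overlapped, with WR of MCA-969 standing apart at the top. MCA-948 tumors ranged from 97.05 over a median of 148.5 to 206.9 CPM and MCA-970 tumors from 146 over 177 to 217.5 CPM. MCA-972 had 149, 141.5, 140.4 and 231.5 CPM in 2G, a-1, a-1G and a-R. No pair of lines was called, and the test of any difference among the 5 lines gave an adjusted p of 0.147 (edgeR quasi-likelihood F test). The widest difference, MCA-969 over MCA-948, was 0.50 ± 0.20 (log2, standard error), with a 95% interval of 0.10 to 0.90, under the fold threshold of 1, and it was 0.23 ± 0.15 without MCA-969 WR.

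Sox5 (chr6:143828425-144781977), a partner of SOX9, was highest in MCA-969. There the lowest, median and highest tumor had 11.2, 20.6 and 45.3 CPM, against 5.49, 4.93, 5.22 and 6.56 CPM in the tumors of MCA-943. MCA-948 held 6.42, 7.47 and 8.76 CPM, MCA-970 held 5.95, 8.69 and 10.1 CPM as lowest, median and highest, and MCA-972 held 7.32, 8.68, 8.58 and 9.41 CPM. Every MCA-969 tumor was above every tumor of the other lines, and the other lines lay between 4.93 and 10.1 CPM. MCA-969 exceeded MCA-943 by 2.09 ± 0.24, MCA-948 by 1.65 ± 0.18, MCA-970 by 1.49 ± 0.20 and MCA-972 by 1.47 ± 0.23 on the log2 scale (adjusted p 1.81e-08, 6.28e-09, 2.62e-07 and 4.67e-06 by edgeR). The 2 MCA-969 tumors of the second run of library numbers, W-1D and W-2D, had the lowest Sox5 of the line, 11.2 and 15.7 CPM. Both are labeled with the opposite sensitivity, so run and label cannot be told apart within this line. Within that run MCA-969 exceeded MCA-970 by 0.69 ± 0.23 and MCA-948 by 0.67 ± 0.26, under the fold threshold, and with the run as covariate MCA-969 exceeded them by 0.68 and 0.66, while the differences from MCA-972 (1.67) and MCA-943 (1.04) stayed called. Within the first run MCA-969 exceeded MCA-972 by 1.66 ± 0.23.

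Sox6 (chr7:115470872-116038796), the other partner, was at or near the floor in most tumors: 20 of 30 tumors had 3 counts or fewer, the highest level was 0.519 CPM in MCA-972 a-1, and the gene did not pass the filter. Over all tumors of a line its total was 6 counts in MCA-943, 19 in MCA-969, 27 in MCA-948, 14 in MCA-970 and 29 in MCA-972. Sox9 was thus high in tumors in which Sox6 was near the floor.

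Of the bone regulators, Runx2 (chr17:44495987-44814797) was expressed at a similar level in every tumor, from 58.5 to 119.7 CPM. MCA-943 had 78.9, 88.7, 84.2 and 75.7 CPM and MCA-972 had 84.1, 89.3, 79.45 and 85.8 CPM. The lowest, median and highest tumor had 58.5, 79.5 and 88.8 CPM in MCA-969, 90.8, 106 and 119.7 CPM in MCA-948, and 79.7, 90.2 and 99.1 CPM in MCA-970. MCA-948 was highest, and its tumors lay above all tumors of MCA-943, MCA-969 and MCA-972 but overlapped MCA-970. The lines differed (adjusted p 1.01e-05, edgeR F test), by at most 0.44 ± 0.07 on the log2 scale for MCA-948 over MCA-969, so no pair passed the fold threshold of 1. Exons of Runx2 overlap those of Runx2os1 on the opposite strand, which had up to 56 counts against 1890 to 4998 for Runx2, and without a stated strand setting such reads cannot be told apart.

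Sp7 (chr15:102356606-102367182) was much lower than Runx2 and was highest in MCA-969. In MCA-969 its tumors had 0.124, 0.537 and 3.10 CPM as lowest, median and highest, the highest being WR. MCA-970 tumors had 0.0726, 0.139 and 0.508 CPM, while in MCA-943, MCA-948 and MCA-972 no tumor exceeded 0.109 CPM. MCA-948 had 2 counts over its 8 tumors, with 6 tumors at 0, against 241 counts in MCA-969. The ratio of these sums was 120.5, with a 95% counting interval of 33.0 to 1001. The fitted difference of MCA-969 was 4.40 ± 0.82 over MCA-943, 6.36 ± 0.76 over MCA-948, 2.12 ± 0.54 over MCA-970 and 4.29 ± 0.80 over MCA-972 (log2, adjusted p 3.63e-05, 2.495e-08, 0.0013 and 4.38e-05 by edgeR). Without WR the mean of MCA-969 fell from 0.842 to 0.519 CPM and these differences were 3.72, 5.68, 1.44 and 3.61, all still called. MCA-970 also exceeded MCA-943 by 2.27 ± 0.93 (adjusted p 0.0353), MCA-948 by 4.24 ± 0.92 (adjusted p 0.00018) and MCA-972 by 2.16 ± 0.89 (adjusted p 0.0455). Without MCA-970 a-1D the first and the last of these were no longer called (1.69, adjusted p 0.127, and 1.58, adjusted p 0.159). Within the second run MCA-969 exceeded MCA-970 by 1.46 ± 0.79 (adjusted p 0.167). With the run of library numbers as covariate, MCA-969 was still called over MCA-948 and MCA-972 (adjusted p 0.0132 and 4.36e-05 by edgeR). Over MCA-943 and MCA-970 it was not called, at 2.52 ± 3.91 and 1.45 ± 0.75 (adjusted p 0.639 and 0.113 by edgeR). MCA-970 was not called over MCA-943, MCA-948 or MCA-972, at 1.07 ± 5.30, 3.41 ± 1.48 and 3.01 ± 1.18 (adjusted p 0.894, 0.0526 and 0.0564 by edgeR). The errors of these lost calls were wider than without the covariate, and MCA-970 over MCA-972 was larger.

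Spp1 (chr5:104435118-104441050) was the most abundant member by far, with a median of 1537 CPM per kb of exon, above 99.97% of the fitted genes on that scale. MCA-943 had 2632, 2429, 2260 and 2279 CPM and MCA-972 had 2199, 2824, 3121 and 2434 CPM. The lowest, median and highest tumor had 1380, 4406 and 6530 CPM in MCA-969 and 1949, 2813 and 3142 CPM in MCA-970. In MCA-948 they had 183, 321 and 427 CPM, with no overlap with any other line. MCA-948 was lower than MCA-943 by 2.92 ± 0.24, than MCA-969 by 3.84 ± 0.23, than MCA-970 by 3.11 ± 0.23 and than MCA-972 by 3.06 ± 0.24 on the log2 scale (adjusted p 1.60e-11, 3.34e-14, 1.36e-12 and 9.90e-12 by edgeR). Within the second run, MCA-948 was below MCA-970 by 2.84 ± 0.19 (adjusted p 2.95e-06), and within the third below MCA-943 by 2.99 ± 0.21 (adjusted p 2.69e-07). Within the second run MCA-969 exceeded MCA-948 by 3.34 ± 0.78 (adjusted p 0.137). MCA-969 exceeded the other non-sensitive line, MCA-943, by 0.92 ± 0.26, MCA-970 by 0.73 ± 0.23 and MCA-972 by 0.78 ± 0.26, with adjusted p of 0.00343, 0.00655 and 0.0131 but under the fold threshold. The MCA-969 tumor W-1D, at 1380 CPM, was below all tumors of MCA-943, MCA-970 and MCA-972, and without it MCA-969 over MCA-943 was called. Exons of Spp1 overlap those of Gm42793 on the same strand, which had at most 450 counts against 6468 to 272172 for Spp1.

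Because macrophages and osteoclasts also make osteopontin, their markers were set beside Spp1. The summed macrophage markers had medians of 81.5 CPM in MCA-943, 22.2 in MCA-969, 111.7 in MCA-948, 65.1 in MCA-970 and 50.8 in MCA-972. By these medians MCA-948, lowest in Spp1, was highest, and MCA-969, highest in Spp1, was lowest. The sums overlapped, with 34.0 to 198.5 CPM in MCA-948 and 27.9 to 456.5 CPM in MCA-970. Gene by gene, 7 of the 8 macrophage markers called among lines were highest in MCA-970 and 0 in MCA-948. None of 11 was called between MCA-948 and MCA-970 or MCA-972, and 1 was called higher in MCA-943 than in MCA-948. In MCA-969, 9 were called lower than in MCA-948 and 0 higher. The 10 osteoclast markers summed to medians of 516.8 CPM in MCA-943, 203.7 in MCA-969, 131.8 in MCA-948, 560.7 in MCA-970 and 240.1 in MCA-972. The sum was lowest in MCA-948, but not every marker was. For MCA-948 minus MCA-972 the median over genes was 0.142 (log2), with 2 of 8 called lower and 0 higher. For MCA-948 minus MCA-970 it was -0.59, with 3 called lower and 0 higher. Of these markers 8 passed the filter, and Dcstamp, which fuses osteoclasts, did not. Fibroblast markers were also lowest in MCA-948, at a median of 14320 CPM against 21680 to 46060 in the others. The part of these cells in the difference of Spp1 was not tested.

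**Figure D2:**
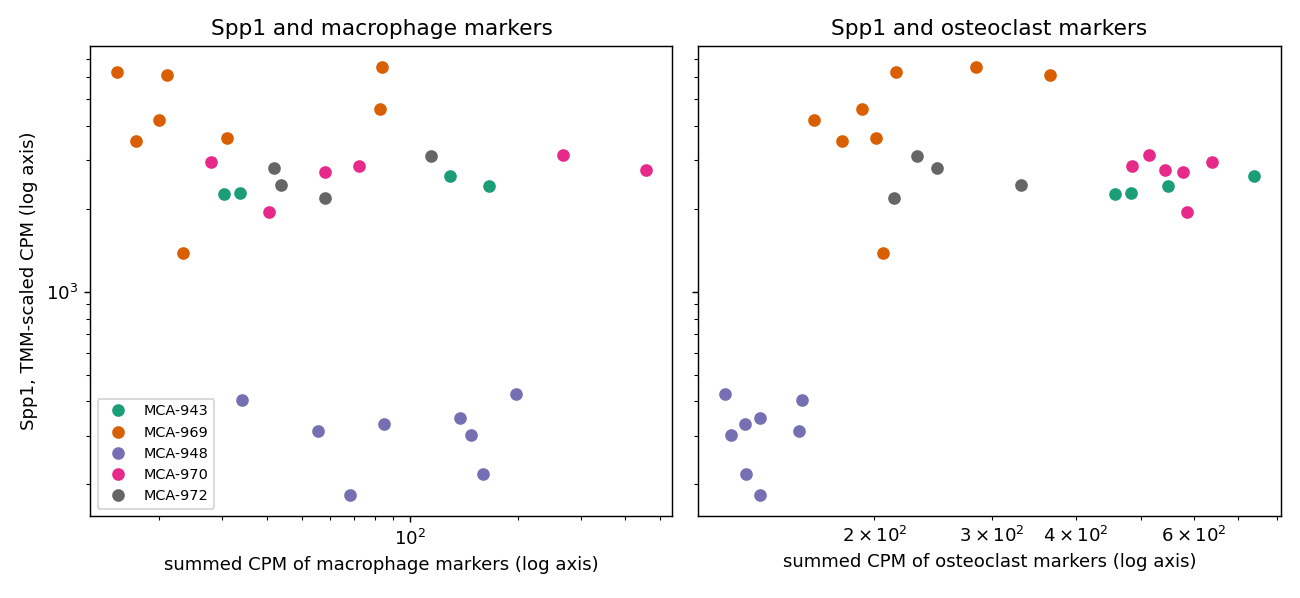
Spp1 (TMM-scaled CPM, log axis) against the summed CPM of macrophage markers (left) and osteoclast markers (right), both on log axes, with 1 point for each of the 30 tumors colored by line. MCA-948 tumors lie at 183 to 427 CPM of Spp1 over a macrophage sum of 34.0 to 198.5 CPM, and at the low end of the osteoclast sum.

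Ibsp (chr5:104299171-104311469), the gene of bone sialoprotein and a neighbor of Spp1, did not share its order of lines. In MCA-969, where Spp1 was highest, Ibsp had 0, 0.0410 and 0.152 CPM as lowest, median and highest, with 17 counts in all. MCA-943 had 0.237, 0.173, 0.454 and 0.0735 CPM, and MCA-948 had 0.0803, 0.244 and 0.557 CPM. MCA-970, with 0.359, 0.432 and 2.09 CPM, and MCA-972, with 0.1825, 0.9555, 0.7825 and 1.14 CPM, were highest and lay above all MCA-969 tumors. MCA-969 was below MCA-943 by 1.89 ± 0.73, MCA-948 by 2.14 ± 0.61, MCA-970 by 3.63 ± 0.59 and MCA-972 by 3.65 ± 0.62 on the log2 scale (adjusted p 0.026, 0.00317, 5.30e-06 and 1.44e-05 by edgeR). MCA-943 was below MCA-970 by 1.73 ± 0.64 and MCA-972 by 1.76 ± 0.68, and MCA-948 below them by 1.49 ± 0.49 and 1.52 ± 0.54 (adjusted p 0.0208, 0.028, 0.00861 and 0.0156). MCA-970 W-1D, at 2.09 CPM, also had the highest macrophage sum of all tumors, 456.5 CPM, and without it the mean of MCA-970 was 0.479 instead of 0.748 CPM and its differences from MCA-943 (1.09, adjusted p 0.115) and MCA-948 (0.85, adjusted p 0.114) were not called. With the run of library numbers as covariate, 4 of these 8 differences were not called: MCA-969 from MCA-943 and from MCA-948 (adjusted p 0.654 and 0.490 by edgeR), and MCA-972 from MCA-943 and from MCA-948 (adjusted p 0.265 and 0.332).

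Alpl (chr4:137741733-137796384), the phosphatase that frees phosphate for mineral, fell into 2 levels. MCA-969 had 0.548, 1.04 and 1.38 CPM and MCA-970 had 0.489, 0.768 and 1.14 CPM as lowest, median and highest, and MCA-972 had 0.808, 0.874, 0.660 and 1.00 CPM. MCA-943 had 0.0678, 0.173, 0.113 and 0.147 CPM, and MCA-948 had 0, 0.0465 and 0.327 CPM. Every tumor of the first 3 lines was above every tumor of the last 2, which hold a non-sensitive and a sensitive line. The 6 differences between these sets were called, from 2.60 ± 0.53 for MCA-970 over MCA-943 to 3.48 ± 0.41 for MCA-969 over MCA-948 (adjusted p 0.000113 and 1.86e-08), and the 4 within them were not, from -0.07 to 0.52. With the run of library numbers as covariate, the 3 called differences that involve MCA-943 were no longer called. MCA-969, MCA-970 and MCA-972 then exceeded it by 1.84 ± 1.02, 1.49 ± 0.96 and 1.55 ± 1.10 (adjusted p 0.154, 0.216 and 0.2945 by edgeR). These sizes were smaller than without the covariate, with wider errors.

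Comp (chr8:70373558-70382066) spanned the widest range after Sp7. MCA-969 had 0.1805, 2.67 and 4.17 CPM, MCA-970 had 0.147, 0.341 and 1.585 CPM and MCA-948 had 0, 0.0286 and 0.0676 CPM as lowest, median and highest. MCA-972 had 2.085, 1.365, 1.15 and 0.835 CPM, and MCA-943 had 0.305, 0.148, 0.113 and 0.171 CPM. All 8 MCA-948 tumors had 3 counts or fewer and lay below the tumors of every other line. MCA-948 was lower than MCA-943 by 2.33 ± 0.87, MCA-969 by 5.91 ± 0.64, MCA-970 by 3.90 ± 0.70 and MCA-972 by 5.20 ± 0.70 on the log2 scale (adjusted p 0.0207, 4.59e-09, 1.55e-05 and 1.96e-07). MCA-969 was split: W-1D and W-2D of the second run had 0.1805 and 0.464 CPM, while the 6 tumors of the first run had 1.16 to 4.17 CPM. W-1D and W-2D are also the tumors labeled with the opposite sensitivity, so run and label cannot be told apart within this line. The call of MCA-969 over MCA-970 (2.01 ± 0.51) turned to -0.78 ± 0.90 within the second run, and within the first run MCA-969 exceeded MCA-972 by 1.07 ± 0.34 (adjusted p 0.0183), which was 0.71 ± 0.54 and not called over all tumors. With the run as covariate MCA-948 was not called below MCA-972 (adjusted p 0.0930 by edgeR), nor MCA-943 below MCA-969 and MCA-972 (adjusted p 0.335 and 0.680). In that fit MCA-948 minus MCA-972 was -3.10 ± 1.40, MCA-943 minus MCA-969 -2.05 ± 1.64 and MCA-943 minus MCA-972 -0.98 ± 1.62. These sizes were smaller than without the covariate, with wider errors.

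Bglap (chr3:88383501-88384464), the latest of the osteoblast genes, had 3 counts or fewer in 24 of 30 tumors and at most 0.2795 CPM, and it did not pass the filter. Its totals were 1 count in MCA-943, 7 in MCA-969, 30 in MCA-948, 24 in MCA-970 and 8 in MCA-972. The ratio of MCA-948 to MCA-943 was 13.8 with a 95% counting interval of 2.30 to 563.6, and that of MCA-970 to MCA-969 was 5.08 with an interval of 2.12 to 13.95. Bglap2 and Bglap3 were as low, at no more than 0.0932 and 0.155 CPM in any tumor.

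**Figure D3:**
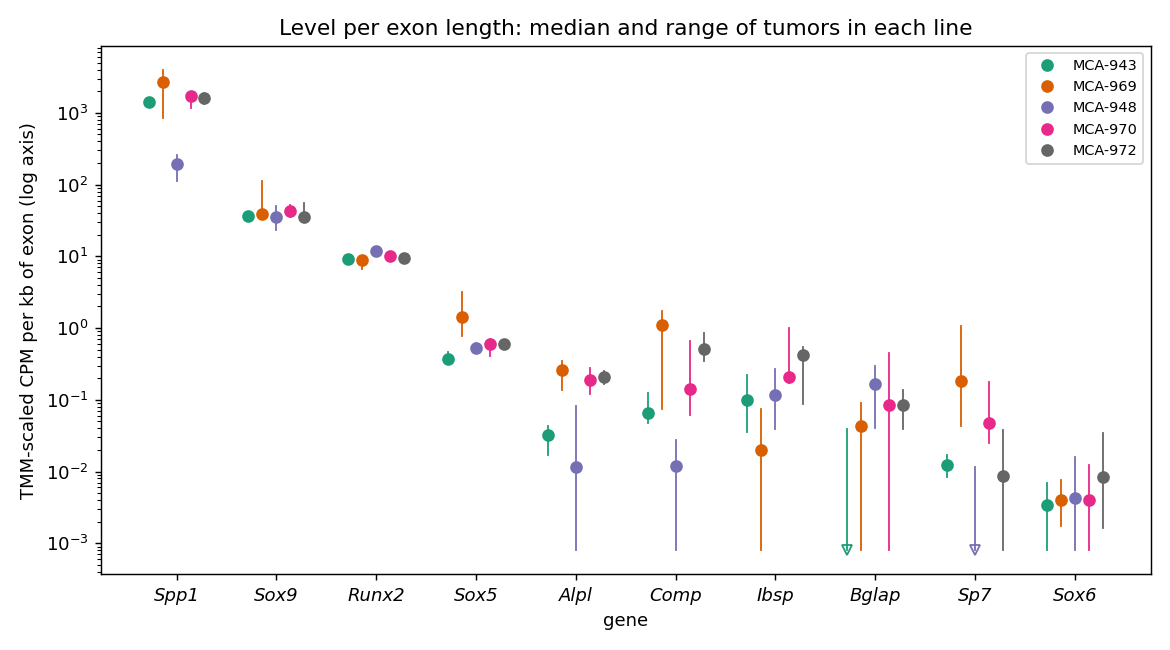
TMM-scaled CPM per kb of exon (log axis) of the members, ordered by their median over all tumors, with the median (point) and the range (line) of the tumors of each line. Open triangles are medians of 0, and ranges that reach 0 end at the foot of the axis; Spp1, Sox9 and Runx2 lie above the other members in all lines.

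Per kb of exon, which allows genes to be compared, the median levels over all tumors were 1537 CPM for Spp1, 37.6 for Sox9, 10.01 for Runx2 and 0.583 for Sox5. Alpl (0.165), Comp (0.128), Ibsp (0.105), Bglap (0.0493), Sp7 (0.0210) and Sox6 (0.00401) followed. Sox9 and Runx2 were above 92.2% and 71.7% of the fitted genes on this scale, and Alpl, Comp and Ibsp above 14.6%, 12.4% and 10.8%. The exon lengths in the table for Sp7 (2906) and Comp (2425) differ from the merged exons of release M21 (3398 and 2967).

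The comparisons between lines asked which of these levels differ, 6 times between a non-sensitive and a sensitive line and 4 times within a class. Of the 10 members 8 passed the filter on low counts, and a difference was called at an adjusted p under 0.05 over all 16862 genes and a log2 fold change of at least 1. Calls among the members numbered 36 of 80 tests, or, without both MCA-969 tumors of the second run, 40, against 24.5% of all tests of all genes. By the test of any difference among lines, 6 of the 8 members were called, against 58.0% of all genes, and by the adjusted p alone 7 were, against 94.1%. With 8 genes tested, and with pairs that share lines, these counts describe the members and no more. Sox5, Sp7, Alpl, Spp1, Ibsp and Comp were the members called, and Sox9 and Runx2 were not.

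Each count of members called is followed by the shares of all genes called in either direction, higher and lower in the line named first. Between non-sensitive and sensitive lines, MCA-943 against MCA-948 had 2 (29.0%, 17.7% and 11.3%), with Spp1 and Comp higher. MCA-943 against MCA-970 had 3 (27.3%, 12.6% and 14.8%), with Sp7, Alpl and Ibsp lower, and against MCA-972 it had 3 (25.6%, 12.2% and 13.4%), with Alpl, Ibsp and Comp lower. MCA-969 against MCA-948 had 6 (20.8%, 16.8% and 3.91%), with Sox5, Sp7, Alpl, Spp1 and Comp higher and Ibsp lower. In its comparisons with sensitive lines MCA-943 was thus lower in each call but those against MCA-948. MCA-969 against MCA-970 had 4 (21.4%, 10.7% and 10.7%), with Sox5, Sp7 and Comp higher and Ibsp lower, and against MCA-972 it had 3 (20.6%, 10.3% and 10.3%), with Sox5 and Sp7 higher and Ibsp lower. Within a class, MCA-943 against MCA-969 had 5 (27.0%, 12.1% and 14.9%), Ibsp higher and the others lower. MCA-948 was lower in all of its calls, 5 against MCA-970 (29.4%, 9.64% and 19.8%) and 4 against MCA-972 (26.8%, 8.27% and 18.5%). MCA-970 against MCA-972 had 1 (17.6%, 8.56% and 9.01%), with Sp7 higher. With the run of library numbers as covariate, 20 of 80 tests were called, 18 of them among the 36.

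**Figure D4:**
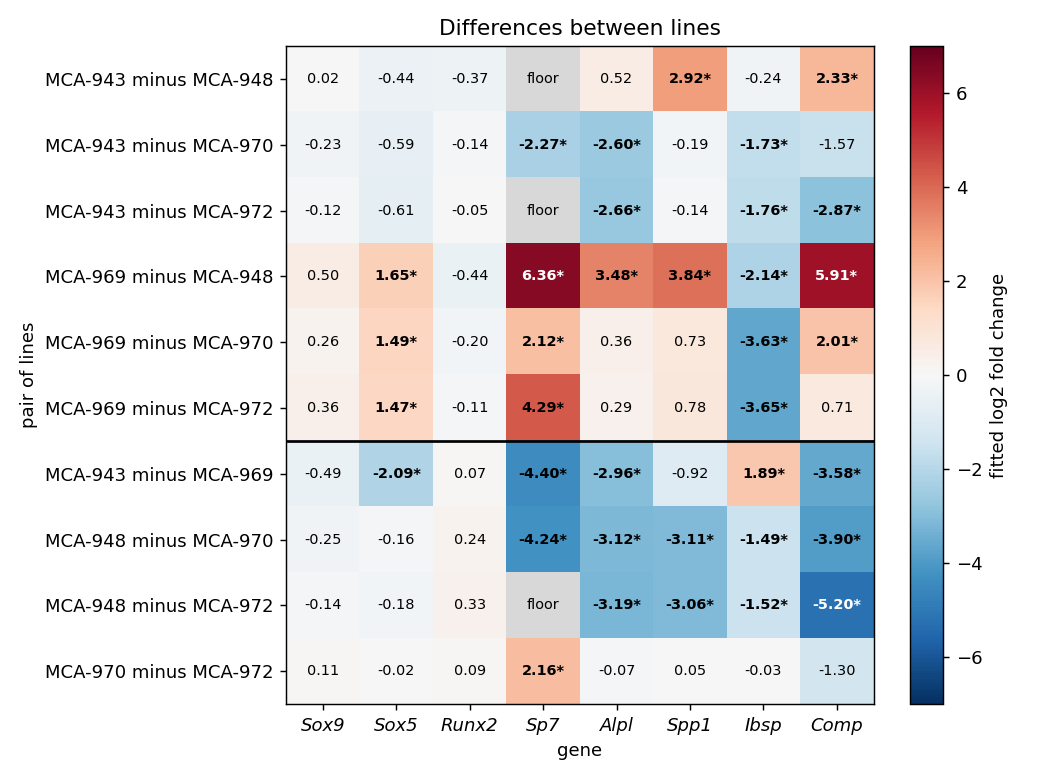
Fitted log2 fold changes of the 8 members tested (columns) in the 10 pairs of lines (rows), the first line minus the second, with an asterisk for a call and the 6 pairs of a non-sensitive minus a sensitive line above the black line. Grey cells are pairs in which both lines were at or under the floor of 3 counts; MCA-948 against each other line holds the calls of Spp1 and MCA-969 against each other line those of Sox5.

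Sensitivity to NK1.1+ cells is a property of the line, so it was tested over the 5 line means of log2 CPM by a two-sided exact permutation test, which cannot go below p = 0.1. Ibsp was lower in non-sensitive lines by 1.65 (exact p = 0.2, n = 5), and it was called in 5 of the 6 comparisons, lower each time, and in 3 of them with the run of library numbers as covariate. Its order was MCA-969, MCA-943, MCA-948, MCA-970 and MCA-972 from low to high, and MCA-943 and MCA-948 were not called different (-0.24 ± 0.63). Bglap alone reached the smallest p, 0.1, with a difference of -0.92 at levels near the floor, and Runx2 was lower by 0.22 (exact p = 0.2, n = 5). The other 7 members had exact p of 0.4 to 1 (n = 5), and the lowest adjusted p over the 10 members was 0.667. Spp1 was higher by 1.28 in non-sensitive lines on this scale (exact p = 0.6, n = 5), and its low line was 1 of the 3 sensitive lines.

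The title letter was tested within the 4 lines that have both letters, in 26 tumors. None of the 8 members tested was called between a and W, against 0.230% of all genes, and 0 were called by DESeq2. At an unadjusted p under 0.05, Ibsp (-0.99 ± 0.38, p 0.0148, adjusted p 0.511 by edgeR) was lower and Comp (1.01 ± 0.42, p 0.0245, adjusted p 0.5795 by edgeR) higher in a than in W. These were 2 members by edgeR, 1 by DESeq2 and 1 by edgeR with the run of library numbers as covariate. Only 1 was left without MCA-969 W-2D, MCA-970 W-1D or MCA-970 a-1D. Letter and run are linked, since the second run holds only W tumors of MCA-969 and only a tumors of MCA-948. The letter differed between lines by adjusted p in 0 of 8 members, against 0.0181% of all genes, with the lowest p for Sox9 (p 0.0429, adjusted p 0.472 by edgeR).

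Other genes of the lineages were read from lists. Their tests had no covariate for the run of library numbers, with which calls of members, among them calls of MCA-969, were lost. Genes near the floor pass the filter only where a line is high, so that the counts over those that passed are a description. All 13 of 23 cartilage genes that passed the filter were called among lines, against 58.0% of all genes. Of the 13, 6 were highest in MCA-972 and 5 in MCA-969. Of the 9784 genes called in all, 1833 were highest in MCA-972 and 1630 in MCA-969. The median range of the cartilage genes between lines was 3.96 on the log2 scale against 1.19 for all genes tested. Aggrecan (Acan), the main proteoglycan of cartilage, was at 0 in all 4 MCA-943 tumors and at 125.9 ± 34.3 CPM (SD, n = 4) in MCA-972, at least 1389-fold higher when MCA-943 is set to 3 counts per library. Col11a1, a collagen of cartilage fibrils, was at 322 ± 18.3 CPM in MCA-972 and 321.8 ± 104 CPM in MCA-970 but 1.39 ± 1.62 CPM in MCA-948. Hapln1, which links aggrecan to hyaluronan, stood at 14.7 ± 6.77 CPM in MCA-969 and at no more than 0.313 CPM on average in any other line. Mgp, an inhibitor of mineralization, was highest in MCA-943 (200.4 ± 47.0 CPM) and lowest in MCA-948 (1.51 ± 0.999 CPM). Acan was thus highest in MCA-972 and Hapln1 in MCA-969, each called over every other line. Mgp in MCA-943 was not called over MCA-969 (0.40 ± 0.42, log2, adjusted p 0.412 by edgeR). Col11a1 was about as high in MCA-970 as in MCA-972. The edgeR F test of any difference among lines gave adjusted p 1.94e-11 for Acan, 1.26e-17 for Hapln1, 1.91e-12 for Mgp and 2.08e-11 for Col11a1. Matn1, Cnmd and Chad, which mark cartilage cells, did not exceed 0.03055 CPM in any tumor, and Col2a1, the defining collagen of cartilage, named here after its values were seen, did not exceed 1.27 CPM.

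**Figure D5:**
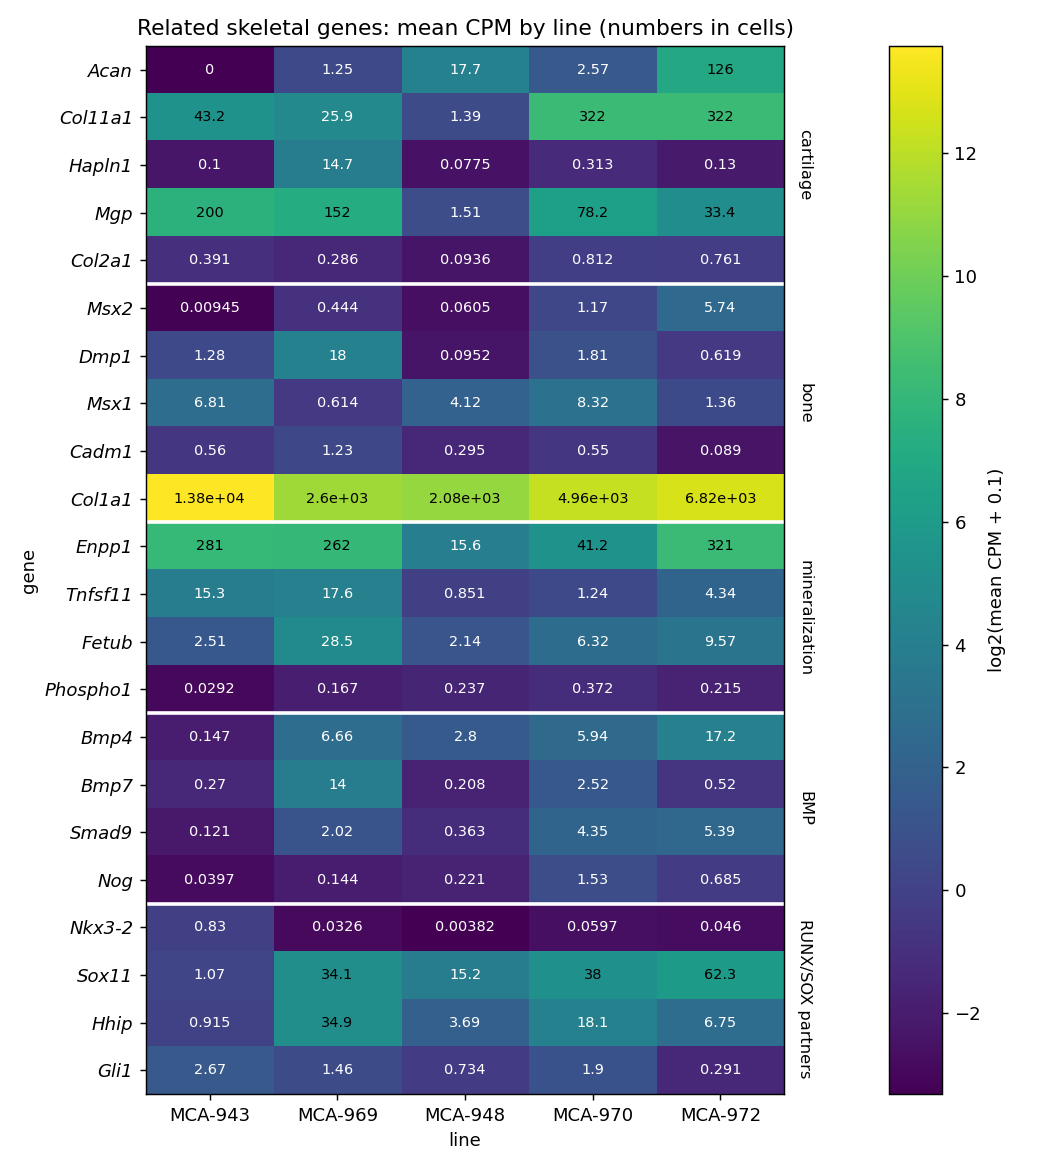
Mean CPM by line (numbers in the cells, colored by log2 of the mean plus 0.1) of the related skeletal genes called with the widest range in each list, with Col2a1 and Col1a1 added. Acan and Msx2 are highest in MCA-972, and Hapln1 and Dmp1 in MCA-969.

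Of 23 osteoblast and bone matrix genes 15 passed and 12 were called among lines, against 58.0% of all genes. Of the 12, 5 were highest in MCA-943, as were 2778 of the 9784 genes called in all. The median range was 2.73, against 1.19 for all genes tested. Dmp1, an osteocyte matrix protein whose gene lies in the same cluster as Ibsp and Spp1, was at 18.01 ± 10.6 CPM in MCA-969, where Ibsp was lowest, and at 0.0952 ± 0.0918 CPM in MCA-948 (adjusted p 2.41e-13, edgeR F test). Mepe of that cluster was at 0 in 28 of 30 tumors. The homeobox gene Msx2 was highest in MCA-972 (5.74 ± 1.21 CPM). Msx1, another, had its highest mean in MCA-970 (8.32 ± 2.47 CPM), which was not called over the non-sensitive MCA-943. The difference of MCA-943 minus MCA-970 was -0.29 ± 0.40 (log2, adjusted p 0.545 by edgeR). Cadm1, an adhesion molecule, had its highest mean in MCA-969 (1.23 ± 1.12 CPM), not called over MCA-943 or MCA-970. Col1a1, the collagen of bone and of fibroblasts, named here after its values were seen, was at 13790 ± 957 CPM in MCA-943 and at 2082 ± 725 CPM in MCA-948. Dlx3, Dlx5, Sost and Fgf23 did not pass the filter.

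Of 11 genes of mineralization and of osteoclast coupling, 10 were named by the annotation, 9 passed and 7 were called, against 58.0% of all genes. Enpp1, which makes pyrophosphate, an inhibitor of mineral, was at 321 ± 42.5 CPM in MCA-972, 281 ± 23.7 in MCA-943 and 262 ± 123 in MCA-969 but at 15.6 ± 3.39 in MCA-948 and 41.2 ± 15.25 in MCA-970. Tnfsf11 (RANKL), which drives osteoclast formation, was at 15.3 ± 2.93 CPM in MCA-943, 17.6 ± 23.8 in MCA-969, 0.851 ± 0.350 in MCA-948, 1.24 ± 0.632 in MCA-970 and 4.34 ± 1.34 in MCA-972. The MCA-969 tumor WR had 75.75 CPM of it and the other tumors of that line 5.21 to 15.3. It was called higher in each non-sensitive than in each sensitive line (1.82 to 4.35 on the log2 scale). The study named this gene from these same samples, so this is not independent evidence. Fetub, a fetuin, was highest in MCA-969 (28.5 ± 25.1 CPM), and Phospho1, a phosphatase of matrix vesicles, stayed at or below 0.3725 CPM on average in every line.

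Of 23 genes of BMP signaling, which induces both lineages, 22 passed and 16 were called, against 58.0% of all genes. Their median range was 2.03, against 1.19 for all genes tested. The ligand Bmp4 was highest in MCA-972 (17.2 ± 6.12 CPM) and lowest in MCA-943 (0.147 ± 0.0841 CPM), and Bmp7 was highest in MCA-969 (14.1 ± 9.15 CPM) and at 0.208 ± 0.178 CPM in MCA-948. Smad9, a mediator of the pathway, ranged from 0.121 ± 0.0533 CPM in MCA-943 to 5.39 ± 0.611 CPM in MCA-972. Noggin (Nog), an antagonist, was highest in MCA-970 (1.53 ± 0.490 CPM). Of the 22 genes, MCA-948 was called lower than MCA-970 in 12 (19.8% of all genes) and higher in 1 (9.64%), lower than MCA-972 in 12 (18.5%) and higher in 1 (8.27%), and lower than MCA-969 in 10 (16.8%) and higher in 0 (3.91%). MCA-943 exceeded MCA-948 in 3 (17.7%) and was lower in 3 (11.3%). In the other 6 pairs the line named first in the comparisons of members above was higher in 2 to 5 and lower in 2 to 9 of them.

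Of 19 partners and regulators of the RUNX and SOX factors, 15 passed and 11 were called, against 58.0% of all genes. Their median range was 1.645, against 1.19 for all genes tested. Sox11 had its highest mean in MCA-972 (62.3 ± 7.50 CPM), not called over MCA-969 or MCA-970, and its lowest in MCA-943 (1.07 ± 0.717 CPM). Hhip, an inhibitor of hedgehog signaling, had its highest mean in MCA-969 (34.9 ± 13.6 CPM), called over every line but MCA-970. Gli1, a target of that pathway, had its highest mean in MCA-943 (2.67 ± 0.676 CPM), not called over MCA-969 or MCA-970. Nkx3-2, a chondrocyte regulator, was highest in MCA-943 (0.830 ± 0.284 CPM) and at no more than 0.0597 CPM on average in the others. Runx1, Cbfb, the partner subunit of RUNX factors, and Twist1, an antagonist of RUNX2, were not called.

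Tendon genes were set beside the members because COMP is also a tendon protein. All 7 passed and were called, against 58.0% of all genes, with a median range of 6.70 against 1.19 for all genes tested. MCA-969 over MCA-948, the pair with the widest difference of Comp, had 6 of 7 tendon genes called higher, against 16.8% of all genes. Their median was 3.39 on the log2 scale, against 0.038 for all genes. In the other pairs with a call of Comp, the tendon median was 1.438 for MCA-943 minus MCA-948, -3.555 for MCA-948 minus MCA-970 and -2.798 for MCA-948 minus MCA-972. It was -0.323 for MCA-943 minus MCA-969, 0.232 for MCA-943 minus MCA-972 and -0.623 for MCA-969 minus MCA-970. In the last pairs, MCA-943 minus MCA-972 and MCA-969 minus MCA-970, its sign was opposite to that of Comp. The part of tendon-like cells in the level of Comp was not tested. MCA-970 a-1D, the tumor with the highest Comp of its line, also had its lowest Spp1. A summed tendon level is not given because 1 gene, Egr1, an immediate early gene named after its values were seen, was far above the others, at 3572 ± 533 CPM in MCA-970 against 194.9 ± 127 CPM for Thbs4.

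Profiles most like those of the regulators were taken as the 3 genes with the smallest root mean square difference of centred line means of log2 CPM over the 5 lines. For Sp7 they were Ptprv (0.11), Ncmap (0.17) and Sprr1a (0.23), against a range of 3.38 of Sp7 itself. For Sox5 they were Scg5, Tppp and Cxadr (0.17 each), against a range of 1.97. Sox9 (Hmbox1, Sbno2 and Tmem161a, 0.04 to 0.05) and Runx2 (Ndufs5, 2310022B05Rik and Trappc3, 0.01 to 0.04) varied by 0.41 and 0.44 between lines. For Sox6, at most 0.198 CPM on average in any line, they were 6030445D17Rik, Phtf1os and Sf3b3 (0.03 to 0.07).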

How the data were processed

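RNA of 30 tumors was sequenced, and the authors deposited 1 table of counts per Ensembl gene with the tumors as columns, per the file headers after removal of duplicate reads by molecular identifiers. Reads were aligned with STAR 2.5.3a to GRCm38 and counted with featureCounts (1.5.2 in the submitters' processing notes, another release in the paper). Strand setting and treatment of reads with several alignments are not given in the sources used here. Unnormalized counts were used, and symbols came from GENCODE release M21, which named 48058 of 48440 genes.

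Counts were scaled by TMM and tested with edgeR 4.0.16 (R 4.3.3, quasi-likelihood, robust) after filterByExpr, with line as factor over all 30 tumors and Benjamini-Hochberg adjustment over 16862 genes. A call needs an adjusted p under 0.05 and a log2 fold change of at least 1. CPM are given as mean ± SD over tumors and fold changes with standard errors. The line means of log2 CPM used a prior count of 2. Alternatives were DESeq2 1.42.0, limma 3.58.1 (voom), other filters, thresholds and covariates, and leaving out each tumor. Leaving out both MCA-969 tumors of the second run was chosen after seeing the data. No pair of tumors of a line had counts that differed by sampling noise alone (chi-square per degree of freedom of 13.3 or more). The statistics were tested on simulated data.

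The members, the lists of related genes and markers were chosen with earlier results of these data known. Named from the lists were up to 4 genes called with the widest range of line means, those that define a cell type and lay near the floor, and, for the regulators, the 3 genes with the most similar line means. Genes named outside this rule are said to be so. Whether tumors of a line came from separate animals is given by codes in the titles only, so p-values measure the spread between these tumors.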

Additional observations from a re-analysis of the deposited data

Results flagged for a closer look

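Of 50 groups of 4 to 8 tumors (10 members in 5 lines), 9 held a tumor that stood apart by Dixon's test. Its rate by chance, about 1 group in 20, holds for independent values of normal spread. Here some levels were of 0 or few counts and groups shared tumors, so the 9 cannot be set against that rate. In MCA-969, WR had 468 CPM of Sox9 and 3.104 CPM of Sp7, and without it the line means were 176.9 ± 52.0 and 0.519 ± 0.246 CPM (SD, n = 7). In MCA-970, a-1D had 0.5084 CPM of Sp7, 1.585 CPM of Comp and, as the lowest, 1949 CPM of Spp1, and without it the means were 0.125 ± 0.0557, 0.343 ± 0.209 and 2892 ± 169 CPM (SD, n = 5). MCA-970 W-1D had 2.089 CPM of Ibsp, and the mean without it was 0.479 ± 0.170 CPM (SD, n = 5). MCA-972 a-R had 231.5 CPM of Sox9, and the mean of the other tumors was 143.8 ± 4.86 CPM (SD, n = 3). MCA-948 a-R had 0.3274 CPM of Alpl, and the mean without it was 0.0588 ± 0.0643 CPM (SD, n = 7). MCA-943 a-R had 0.02449 CPM of Bglap, which is 1 count, against 0 in the other tumors of the line.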

How the results depend on the processing

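Of 3730 values of single genes under the alternatives, 3623 kept their direction and side of the threshold, 74 lost it, 30 gained it and 3 reversed. The 36 calls became 8 with a filter of a mean of at least 1 CPM, since Sp7, Alpl, Ibsp and Comp were then not tested, and 20 (18 of them shared) with the run of library numbers as covariate. They numbered 32 to 39 on leaving out 1 tumor and 27 to 47 under the other alternatives. The animal codes did not pair the tumors (29 pairs, correlation -0.43 to 0.411), and with the code as replicate block 33 calls remained, all among the 36. With the 1 CPM filter the calls per pair were 1 for MCA-943 against MCA-948, 0 against MCA-970, 0 against MCA-972 and 1 against MCA-969, 2 for MCA-969 against MCA-948, 1 against MCA-970 and 1 against MCA-972, 1 for MCA-948 against MCA-970 and 1 against MCA-972, and 0 for MCA-970 against MCA-972, and the test among lines gave 2 of 6. With the run as covariate they were 1 and 0 for MCA-943 against MCA-970 and MCA-972, 1 against MCA-969, 0 for MCA-970 against MCA-972, and MCA-969 had 1 against MCA-970. Within the second run MCA-969 had 0 calls against MCA-948 and 1 against MCA-970, and within the third MCA-943 had 1 against MCA-948. MCA-943 against MCA-948 also gave 1 with limma-voom, at an adjusted p under 0.01 and in separate fits, and 1 to 2 on leaving out 1 tumor. MCA-943 against MCA-970 gave 1 at an adjusted p under 0.01 and 1 to 4 on leaving out 1 tumor. In separate fits MCA-969 against MCA-948 and MCA-948 against MCA-970 gave 3 each. The single call of MCA-970 against MCA-972 (Sp7) became 0 without a filter, at an adjusted p under 0.01, with index set or title letter as covariate and in separate fits, was 0 to 2 on leaving out 1 tumor, and became 2 without both MCA-969 tumors of the second run.

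Sox5 in MCA-948 minus MCA-972 turned to 1.00 with the run as covariate, and Comp in MCA-969 minus MCA-970 to -0.79 with it and to -0.78 within the second run. The difference of Alpl over line means turned to 0.08 with a prior count of 0.5. Scaled on total counts, MCA-943 had 136.5 CPM of Sox9, 73.4 of Runx2 and 2152 of Spp1. Apart from the filter, the cause was not tested. The call of Sp7 in MCA-970 over MCA-972 was lost on leaving out 8 of the 30 tumors in turn, that of Sp7 in MCA-970 over MCA-943 on 5, those of Ibsp in MCA-972 and MCA-970 over MCA-943 on 4 and 3. Sox6 and Bglap had 3 counts or fewer in 20 and 24 of 30 tumors, and Sp7 had 2 counts over the 8 tumors of MCA-948, so that differences at these levels rest on few counts.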
